A study of Mus musculus with 12 samples.

Results

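The genes described here are 35 that cells use to copy their DNA and to make the nucleotides for it. They were chosen by name from a table of read counts for whole mouse lungs. All 35 were found among the 56748 genes of that table, and all 35 passed the low-count filter that left 20229 genes for testing. By role they are 8 origin licensing genes (Mcm2 to Mcm7, Cdc6, Cdt1), 6 helicase activation genes (Mcm10, Cdc45, Gins1 to Gins4), 6 polymerase and primase genes (Pola1, Pola2, Prim1, Prim2, Pold1, Pole), 7 clamp and lagging strand genes (Pcna, Rfc2 to Rfc5, Fen1, Lig1), 4 nucleotide synthesis genes (Rrm1, Rrm2, Tk1, Tyms) and 4 genes of G1/S control (Ccne1, Ccne2, E2f1, Uhrf1).

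The lungs came from mice with the MMTV-PyMT transgene: the polyoma middle T oncogene under a promoter of mouse mammary tumour virus. Their mammary epithelium forms tumours that spread to the lung. Tissue was taken at 4.5 months from 3 genotypes with 4 libraries each. Wild type (WT) is MMTV-Cre; MMTV-PyMT in the series text, while its strain label names only MMTV-PyMT. C3 knockout (C3 KO) is labelled MMTV-Cre;C3Tdt:MMTV-PyMT, and S1pr1 knockout (S1pr1 KO) is labelled MMTV-Cre;S1pr1fl/fl; MMTV-PyMT. All groups therefore carry the oncogene and, per the series text, the Cre. The Cre is under the same promoter, so the deletion is aimed at mammary epithelium. Which cells of the lung samples carry it was not tested. The labels do not name the animal behind each library, and p-values therefore measure only the spread between libraries, which may be technical.

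Before S phase, CDC6 and CDT1 load a ring of the MCM2 to MCM7 proteins on DNA at each origin. CDC45 and the GINS complex then turn that ring into the active helicase, DNA polymerase alpha with primase starts each strand, and polymerases delta and epsilon extend it behind the PCNA clamp. E2F transcription factors switch many of these genes on. They are released when cyclin-dependent kinases, among them CDK2 with cyclin E, inactivate the retinoblastoma protein. The genes are therefore high in dividing cells and low in the mostly resting cells of an adult lung.

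E2F-type sequences stood before the start of 8 members. RefSeq promoter sequences (GRCm38.p6) were matched for 27 members, and the 250 bases before the start were searched on both strands for TTTCCCGC, TTTCGCGC, TTTGCCGC and TTTGGCGC. These overlap one another where sites run together. A match was found for 8 of 27 members (29.6%), against 583 of 27025 genes (2.16%). It was found for 12 of 69 other replication pathway genes (17.4%) and 1 of 26 genes of a mitosis list (3.85%). Stretches from 5 members are shown, because they cover licensing, polymerase and G1/S control genes. Capitals mark the E2F-type letters, with 20 bases on each side, read on the gene's strand. They lie at chr1:128359725-128359835 on the minus strand for Mcm6, chr8:75109336-75109387 on the plus strand for Mcm5, chr11:98907993-98908040 on the plus strand for Cdc6, chr17:56304108-56304155 on the plus strand for Uhrf1, and chrX:93632266-93632313 on the minus strand for Pola1.
Mcm6: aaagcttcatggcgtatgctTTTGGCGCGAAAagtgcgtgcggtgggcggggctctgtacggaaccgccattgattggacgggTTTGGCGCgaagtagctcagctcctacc
Mcm5: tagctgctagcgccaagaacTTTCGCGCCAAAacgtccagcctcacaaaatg
Cdc6: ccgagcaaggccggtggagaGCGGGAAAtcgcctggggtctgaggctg
Uhrf1: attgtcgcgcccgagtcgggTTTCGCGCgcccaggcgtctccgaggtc
Pola1: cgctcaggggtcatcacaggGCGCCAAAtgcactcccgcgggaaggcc

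In Mcm6 and Mcm5 sites on opposite strands run into each other, which gives the 12-letter capital runs. The CCAAT box (CCAAT) was present before the start of 15 of 27 members (55.6%) and 37.5% of all genes. It was present for 36 of 69 other replication pathway genes (52.2%) and 20 of 26 mitosis genes (76.9%). The CHR element (TTTGAA), which marks many mitotic promoters, was present for 4 of 27 members (14.8%) and 18.3% of all genes. Among other replication pathway genes it was present for 12 of 69 (17.4%), and among mitosis genes for 8 of 26 (30.8%). A match is a description of letters and not a measured binding site.

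Total counts ranged from 32274797 to 53063470 per library, and members had between 29 (Fen1) and 2324 counts in a library. Lung markers were abundant throughout: the surfactant gene Sftpc stood between 9411 and 12828 CPM. The CPM unit is the read count per 1000000 reads of the TMM-scaled library total. A list of 8 lung markers was lowest for S1pr1 KO 3 and 4, with sums of 35407 and 32228 CPM. In the other libraries it summed to between 37618 and 49236 CPM. The part of this difference in the results was not tested. The targeted genes were checked first. C3 was at 787 to 1025 CPM in WT and at 475, 465 and 601 CPM in C3 KO 1 to 3, whereas the library labelled C3 KO 4 had 1416 CPM. S1pr1 was at 295 to 491 CPM in WT with 132, 142 and 154 CPM for S1pr1 KO 1, 3 and 4, whereas the library labelled S1pr1 KO 2 had 366 CPM. By these whole-lung levels, the libraries C3 KO 4 and S1pr1 KO 2 go against their labels. This rests on the targeted gene alone, and the labels were kept. For S1pr1 KO 2 the 8 NK cell markers summed to 95.4 CPM and the 8 ciliated cell markers to 843 CPM. Both sums lay with the other S1pr1 KO libraries, above the WT ranges (28.3 to 68.3 and 603 to 757 CPM). Which cells the levels of C3 and S1pr1 come from was not tested. The counts of members in each comparison are given with and without C3 KO 4 and S1pr1 KO 2. Neither targeted gene passed the test (log2 fold change -0.25 ± 0.30, edgeR adjusted p = 0.813, for C3; -0.85 ± 0.29, edgeR adjusted p = 0.153, for S1pr1).

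Among the members, levels per gene length (FPKM) spanned a wide range. Pcna, the sliding clamp, had the highest mean at 17.1 ± 1.35 FPKM (SD, 12 libraries), followed by Gins4 at 15.1 ± 1.26, Mcm4 at 9.22 ± 0.947, Mcm6 at 7.51 ± 1.03 and Pold1 at 7.39 ± 0.623. Mcm10, which helps to activate the helicase, had the lowest at 0.327 ± 0.0845 FPKM, below Pole at 0.509 ± 0.164 and Gins2 at 0.606 ± 0.204. Of the 34 neighbouring pairs in this order, 33 overlapped in their ranges over the 12 libraries, and the step from Gins4 to Mcm4 was the one that did not.

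**Figure D1:**
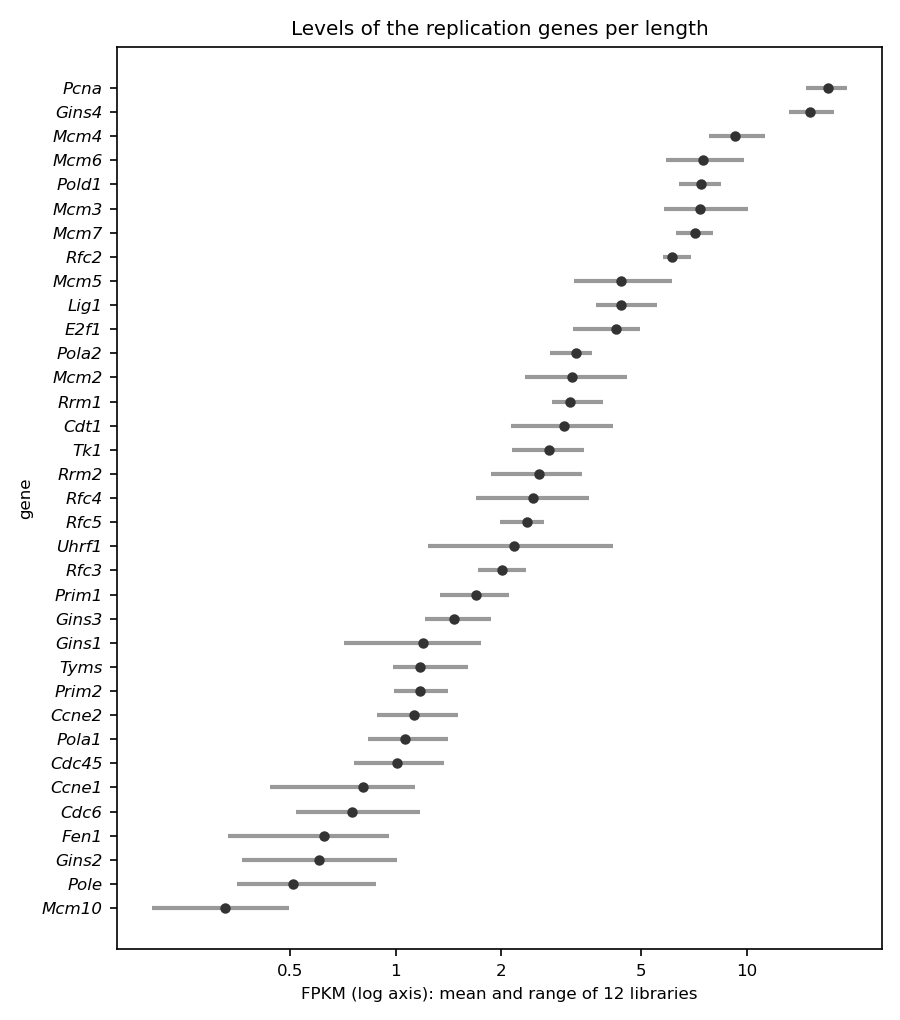
Level of each of the 35 replication genes in FPKM (log axis), as the mean (point) and range (line) of 12 libraries. Pcna is highest at a mean of 17.1 FPKM and Mcm10 lowest at 0.327 FPKM, and ranges of neighbours overlap except between Gins4 and Mcm4.

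Subunits of one complex were not listed at equal levels. Gins4 exceeded Gins1 by a median of 13.4 times, Gins2 by 26.7 times and Gins3 by 10.9 times, although the proteins form a complex with 1 copy of each. Within the MCM ring, the median ratio was 2.14 for Mcm4 over Mcm5 and 2.28 for Mcm7 over Mcm2. Rrm1 and Rrm2, the large and small subunits of ribonucleotide reductase, were nearer to each other, with a median ratio of 1.19. The ratio of Pold1 to Pole, the catalytic subunits of polymerases delta and epsilon, was 17.3 ± 2.48 in WT, 18.4 ± 2.70 in C3 KO and 11.0 ± 2.44 in S1pr1 KO (SD, n = 4). These ratios depend on the listed gene lengths. The loci of 10 members overlap another protein-coding gene, among them Gins2 (Gse1), Rfc4 (Eif4a2) and Cdc45 (Ufd1). Because the strand setting of the counting is not stated, reads from the shared stretch cannot be assigned to 1 of the 2 genes. The length of that stretch was not measured.

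The first comparison asked whether C3 KO lungs differed from WT lungs. No member passed edgeR's quasi-likelihood test at an adjusted p of 0.05 in C3 KO against WT, where 2 of all genes tested did (0.00989%). At an unadjusted p under 0.05 there was 1 lower member, Gins2 (background 5.09%), and none higher (5.87%). DESeq2 also called no member (0.850% of all genes), nor did limma with voom (0.104%). Of the 35 members, 14 had a fold change above 0 (49.8% of all genes) and 21 below, with a median of -0.02 on the log2 scale against -0.00099 over all genes. Without the 2 libraries that go against their labels no member passed (0.152% of all genes), 1 had an unadjusted p under 0.05 (11.2%) and 11 were above 0 (50.3%). Gins2 and Rfc4 were the members whose C3 KO libraries all lay below all WT libraries, 2 of 35 against 3.09% of all genes.

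Gins2, a GINS subunit (chr8:121305372-121316043, minus strand, GRCm39), was at 2.34, 2.08, 3.13 and 2.30 CPM in WT 1 to 4 and at 1.59, 2.08, 1.50 and 1.82 CPM in C3 KO 1 to 4. The groups nearly met, with C3 KO 2 and WT 2 printed alike at this rounding. Its log2 fold change was -0.50 ± 0.22 (SE; edgeR adjusted p = 0.434). Rfc4, a subunit of the factor that loads the clamp, was at 3.86, 3.87, 4.01 and 4.22 CPM in WT and at 2.60, 3.37, 3.17 and 3.76 CPM in C3 KO, a difference of -0.31 ± 0.17 (edgeR adjusted p = 0.534). Pola2, the second subunit of polymerase alpha, was at 27.4, 28.2, 28.8 and 29.8 CPM in WT and at 26.3, 30.1, 23.6 and 22.7 CPM in C3 KO, and these overlapped (-0.15 ± 0.10, edgeR adjusted p = 0.606).

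The example of each role overlapped WT in C3 KO. Mcm5 was at 17.2, 19.6, 12.8 and 17.9 CPM in C3 KO 1 to 4, and Cdc45, the helicase cofactor, at 3.12, 3.57, 3.11 and 3.63 CPM. Pola1 was at 9.54, 8.34, 8.52 and 9.60 CPM, and Rrm2 at 5.32, 7.82, 6.11 and 7.45 CPM. E2f1 was at 12.8, 14.5, 14.3 and 13.7 CPM, and Mcm2 at 20.4, 25.1, 17.7 and 19.0 CPM. The WT levels of these genes are given with the S1pr1 KO levels. Fold changes in C3 KO against WT were 0.08 ± 0.17 for Mcm5, 0.02 ± 0.17 for Cdc45, 0.01 ± 0.15 for Pola1, -0.08 ± 0.07 for Pcna, -0.18 ± 0.21 for Rrm2 and 0.06 ± 0.13 for E2f1, the transcription factor that names the family. Their edgeR adjusted p-values were between 0.691 and 0.994. Several of these signs turned when a library was left out, so no direction is read from them. Over all members the SE ran from 0.06 to 0.32.

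The second comparison set S1pr1 KO against WT. Again no member passed (edgeR), where 274 of all genes did (1.35%). At an unadjusted p under 0.05, 3 members were higher, Pole, Uhrf1 and Mcm2 (background 9.94%), and none was lower (8.11%). A fold change above 0 was found for 27 of 35 members (49.8% of all genes), with a median of 0.12 against -0.0011 over all genes. DESeq2 called 2 of 35, Pole and Uhrf1, where it called 6.32% of all genes, and limma with voom called 1, Pole, where it called 4.59%. Without the 2 libraries that go against their labels edgeR called 1, Pole, against 2.31% of all genes, with 10 members at an unadjusted p under 0.05 (19.0%) and 32 above 0 (49.6%). Each of these shares of called members is near that of all genes. The count at an unadjusted p under 0.05 was 9 without S1pr1 KO 2 (17.1% of all genes), 6 without S1pr1 KO 1 (18.5%), and 2 without S1pr1 KO 3 (15.3%) or without S1pr1 KO 4 (13.0%).

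All 8 licensing genes had positive values in S1pr1 KO against WT, with a median of 0.20. The helicase activation genes had 4 of 6 above 0 (median 0.27), the polymerase genes 4 of 6 (0.01), the clamp and lagging strand genes 6 of 7 (0.12), the nucleotide synthesis genes 3 of 4 (0.11) and the G1/S genes 2 of 4 (0.11). These are counts of sign and not of tested change. In bulk tissue, a change in the number of cells of a type and a change in RNA per cell cannot be told apart.

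**Figure D2:**
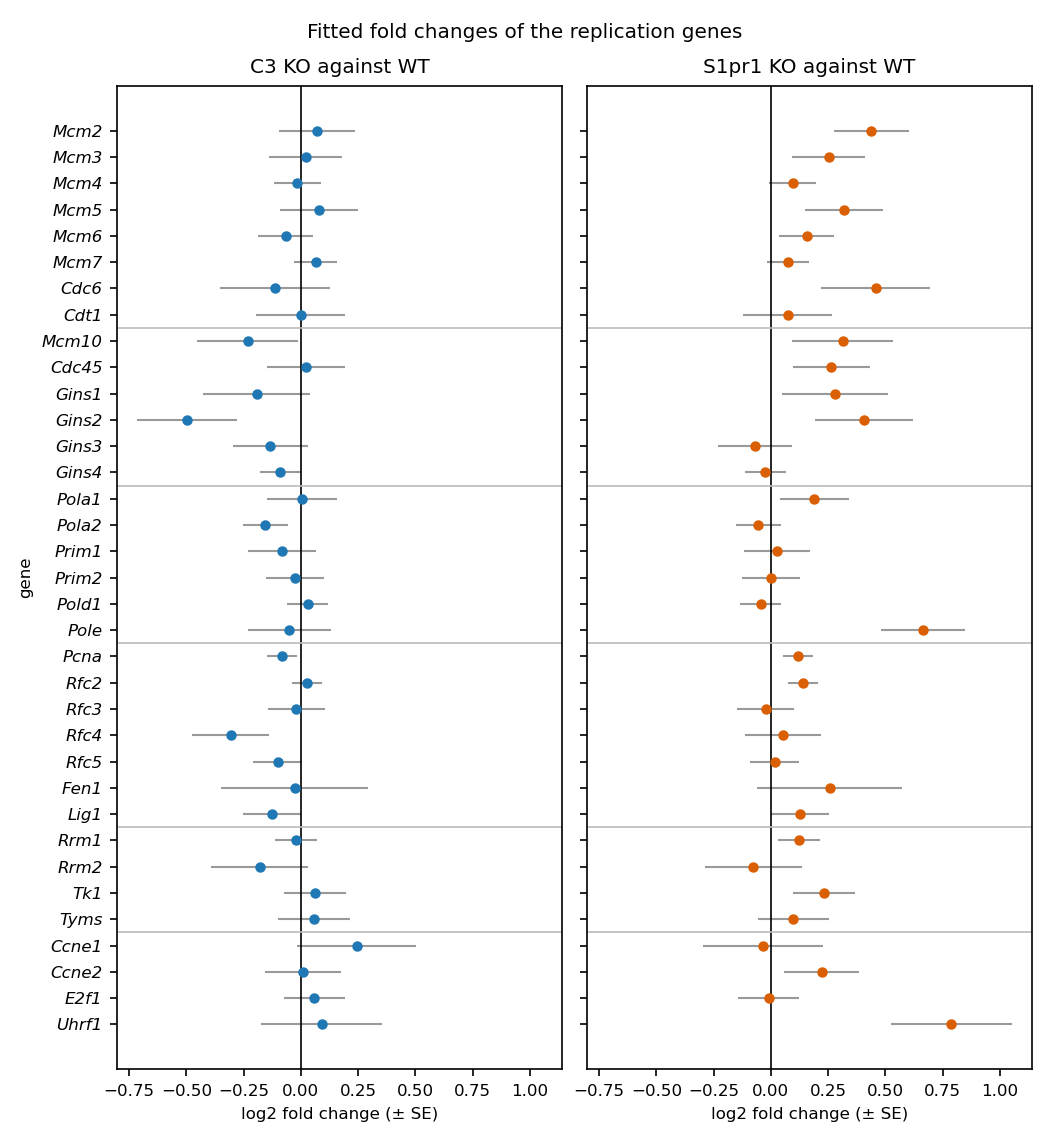
Fitted log2 fold change of each member (points) with its SE (lines) in C3 KO against WT and in S1pr1 KO against WT, with horizontal lines between roles. In the S1pr1 KO panel 27 of 35 points lie above 0, with Uhrf1 (0.79) and Pole (0.66) farthest out, and in the C3 KO panel 14 of 35 do.

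Pole, the catalytic subunit of polymerase epsilon (chr5:110434172-110485340, plus strand, GRCm39), was at 4.98, 5.05, 4.54 and 4.69 CPM in WT and at 6.06, 5.56, 9.08 and 9.89 CPM in S1pr1 KO. Every S1pr1 KO library was above every WT library, the only such member (1 of 35, against 6.16% of all genes). The fold change was 0.66 ± 0.18 (edgeR adjusted p = 0.0834), with 0.0157 by DESeq2, 0.0409 by voom and 0.0456 by edgeR without the 2 libraries that go against their labels. Without S1pr1 KO 4 it was 0.229.

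Uhrf1, which carries DNA methylation through replication (chr17:56610321-56630486, plus strand, GRCm39), was at 7.28, 8.59, 5.97 and 7.43 CPM in WT and at 7.76, 9.37, 15.8 and 17.8 CPM in S1pr1 KO. S1pr1 KO 3 and 4 stood far above the rest, and S1pr1 KO 1 lay inside the WT range. Its fold change was 0.79 ± 0.26 (edgeR adjusted p = 0.144; DESeq2 adjusted p = 0.0480). Mcm2, a subunit of the helicase ring (chr6:88860456-88875762, minus strand, GRCm39), was at 24.5, 18.2, 16.3 and 19.1 CPM in WT and at 24.6, 19.8, 32.0 and 29.6 CPM in S1pr1 KO, a difference of 0.44 ± 0.16 (edgeR adjusted p = 0.183). Rfc4 and Pola2 overlapped WT, at 3.65, 3.38, 4.06 and 5.49 CPM and at 30.0, 23.0, 27.9 and 29.1 CPM in S1pr1 KO.

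Mcm5, another ring subunit, was at 16.7, 16.2, 15.9 and 15.1 CPM in WT and at 15.9, 15.1, 24.6 and 24.4 CPM in S1pr1 KO (0.32 ± 0.17, edgeR adjusted p = 0.347). Cdc45 was at 2.69, 3.57, 3.48 and 3.51 CPM in WT and at 3.71, 2.93, 4.83 and 4.45 CPM in S1pr1 KO (0.26 ± 0.17, edgeR adjusted p = 0.445). For both genes S1pr1 KO 3 and 4 lay above the WT range, and for Cdc45 S1pr1 KO 1 did too. Pola1, the catalytic subunit of polymerase alpha, was at 8.14, 9.52, 7.35 and 10.8 CPM in WT and at 7.80, 9.96, 10.7 and 12.5 CPM in S1pr1 KO, and the groups overlapped (0.19 ± 0.15, edgeR adjusted p = 0.560).

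Pcna was at 39.9, 39.6, 38.9 and 44.2 CPM in WT and at 42.3, 43.2, 44.7 and 46.7 CPM in S1pr1 KO (0.12 ± 0.07, edgeR adjusted p = 0.363). Rrm2, the cell-cycle regulated subunit of ribonucleotide reductase, was at 8.31, 6.72, 6.18 and 9.02 CPM in WT and at 5.55, 5.17, 8.58 and 9.44 CPM in S1pr1 KO (-0.08 ± 0.21, edgeR adjusted p = 0.895). The Rrm2 levels of S1pr1 KO lay on both sides of the WT range. E2f1 was at 15.8, 13.7, 11.1 and 12.4 CPM in WT and at 13.3, 10.1, 15.0 and 14.4 CPM in S1pr1 KO (-0.01 ± 0.13, edgeR adjusted p = 0.983), and its groups overlapped throughout.

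**Figure D3:**
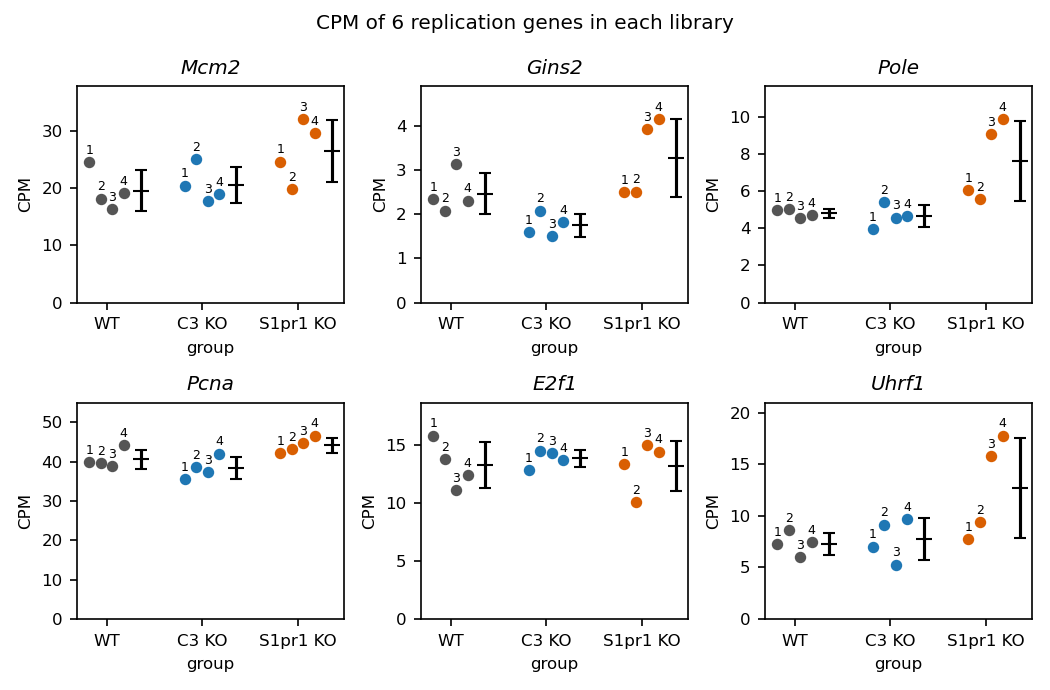
CPM of 6 members in each library (points, numbered by replicate) with the mean and SD of each group (bars, n = 4). For Pole every S1pr1 KO library is above every WT library, while for Uhrf1 and Mcm2 replicates 3 and 4 are high and for E2f1 the groups overlap.

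The S1pr1 KO libraries were not alike. The geometric mean of the 35 members was 12.1 and 12.3 CPM for replicates 3 and 4 of S1pr1 KO, against 9.24 and 8.65 CPM for replicates 1 and 2, 9.02 to 9.77 CPM in WT and 8.35 to 9.99 CPM in C3 KO. These libraries were singled out after their values were seen, so what follows is a description with no test. S1pr1 KO 3 and 4 were the 2 highest of 12 libraries for 17 of 35 members, against 3.19% of all genes tested. Both lay above every WT library for 22 of 35 members, against 16.1% of all genes. The spread of log2 CPM was largest in S1pr1 KO for 28 of 35 members, against 28.0% of all genes. S1pr1 KO 3 alone was above every WT library for 24 members (23.3% of all genes), S1pr1 KO 4 for 25 (26.2%) and S1pr1 KO 1 for 9 (22.5%). S1pr1 KO 2 lay below every WT library for 15 members and above every one for 3 (background 25.8% and 25.3%).

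C3 KO libraries differed too. C3 KO 2 lay above every WT library for 13 of 35 members (21.0% of all genes), and C3 KO 3 lay below every WT library for 17 (23.6%). C3 KO 3 was the lowest library of all 12 for 10 members (9.81% of all genes), and C3 KO 1 for 6 (4.33%). C3 KO 3 also stood apart in blood genes: 11 erythroid markers summed to 24830 CPM there and to 1044 to 4556 CPM in the other libraries, and 10 neutrophil markers to 959 CPM against 121 to 364 CPM. Their part in the result was not tested.

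**Figure D4:**
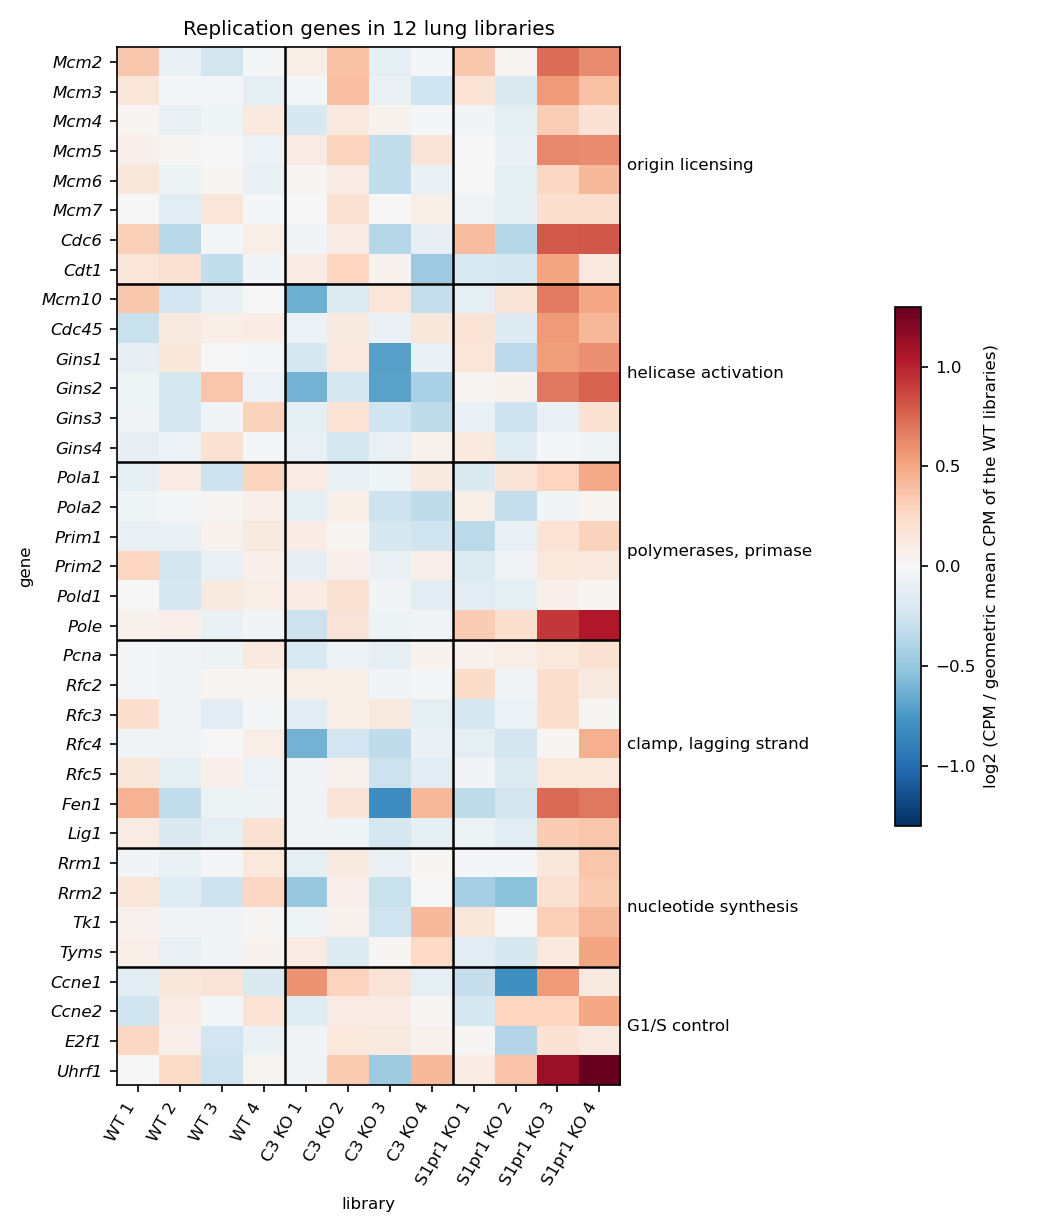
Log2 ratio of each member's CPM to the geometric mean of the WT libraries (colour), with members in rows by role and the 12 libraries in columns. S1pr1 KO 3 and 4 are the 2 highest libraries for 17 of 35 members and neither is below every WT library for any member.

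Other genes were read beside these libraries. Mki67, the proliferation marker, had 38.6 and 43.1 CPM for S1pr1 KO 3 and 4 and between 15.9 and 30.2 CPM in the other 10. Csn3, a casein gene of mammary epithelium, had 19.0 and 25.4 CPM for S1pr1 KO 3 and 4, 0.890 and 1.86 CPM for S1pr1 KO 1 and 2, and 0.247 to 8.23 CPM for WT. The milk genes Wap (0 to 0.199 CPM) and Lalba (0.0256 to 0.742 CPM) were near 0 in every library. The 18 mammary epithelium markers, all in the table, summed to 475 to 559 CPM in WT and 448 to 634 CPM in C3 KO. In S1pr1 KO 1 to 4 the sum was 518, 797, 572 and 673 CPM. Krt8 made the largest part of it in every library, at 164 to 193 CPM in WT. Ltf, at 220 CPM for S1pr1 KO 2, is also among the neutrophil markers. The 14 T cell markers summed to 109 to 158 CPM in WT and 62.4 to 112 CPM in S1pr1 KO. Of their fold changes, 14 of 14 were below 0, and edgeR called 2, where it called 1.35% of all genes. The 10 B cell markers summed to 276 to 526 and 130 to 355 CPM (10 of 10 below 0, 0 called). The 8 NK cell markers summed to 28.3 to 68.3 and 82.0 to 104 CPM (8 of 8 above 0, 0 called). The 10 cardiomyocyte markers summed to 172 to 664 CPM in WT and 806 to 3249 CPM in S1pr1 KO (10 of 10 above 0, 1 called by edgeR), and the 8 ciliated cell markers to 603 to 757 and 843 to 1034 CPM (8 of 8 above 0, 2 called). Their part in the result was not tested.

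Mitosis genes had the same layout. Of 30 listed genes, 29 had a positive fold change in S1pr1 KO against WT (49.8% of all genes), with a median of 0.28. None passed in edgeR, DESeq2 or voom. At an unadjusted p under 0.05 in edgeR, 1 of 30 was higher (background 9.94%) and none lower (8.11%). The count at that threshold was 6 with voom (22.5% of all genes). It was 11 without both libraries that go against their labels (19.0%) and 11 without S1pr1 KO 2 alone (17.1%). It was 6 without S1pr1 KO 1 (18.5%), and 0 without S1pr1 KO 3 (15.3%) or without S1pr1 KO 4 (13.0%). S1pr1 KO 3 and 4 were the 2 highest libraries for 21 of 30. The lowest p-values were those of Prc1, which bundles spindle microtubules (0.44 ± 0.20, edgeR adjusted p = 0.274), Tacc3 (0.28 ± 0.14, 0.320) and the mitotic kinesin Kif20a (0.53 ± 0.29, 0.367). In C3 KO against WT, 18 of 30 were above 0 (49.8% of all genes), with a median of 0.03. The lowest p-values there were those of Ube2c (0.47 ± 0.39, edgeR adjusted p = 0.709), Plk1 (-0.28 ± 0.26, 0.737) and Tacc3 (-0.15 ± 0.14, 0.755).

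A further 83 replication pathway genes, of which 82 were in the table and tested, were also read. In S1pr1 KO against WT 52 were above 0 (49.8% of all genes), with a median of 0.04. At an unadjusted p under 0.05, 7 were higher (9.94% of all genes) and 4 lower (8.11%). None passed in edgeR. DESeq2 called 4 of 82, Chaf1a, Cdk6, Cdkn1b and Rb1, against 6.32% of all genes. Voom called 2 of 82, Chaf1a and Cdkn1a, against 4.59%. Without the 2 libraries that go against their labels edgeR called the same 2 (2.31%). Cdkn1a, which encodes p21, was at 65.3, 112, 104 and 125 CPM in WT. In S1pr1 KO it was at 39.4, 88.1, 41.1 and 49.2 CPM (-1.11 ± 0.23, voom adjusted p = 0.0248). Chaf1a, a chromatin assembly factor that follows the fork, was at 6.72, 5.87, 7.12 and 6.58 CPM in WT and at 8.54, 7.70, 11.0 and 11.0 CPM in S1pr1 KO, without overlap (0.54 ± 0.13, edgeR adjusted p = 0.0633; DESeq2 adjusted p = 0.00497). Cdk6, a G1 kinase, was at 65.3 to 69.5 CPM in WT and 74.0 to 78.1 CPM in S1pr1 KO (0.16 ± 0.05, edgeR adjusted p = 0.101; DESeq2 adjusted p = 0.0175). Cdkn1b, the CDK inhibitor p27, was at 113 to 137 CPM in WT and 93.9 to 105 CPM in S1pr1 KO (-0.31 ± 0.09, edgeR adjusted p = 0.107; DESeq2 adjusted p = 0.0423). In C3 KO against WT 37 of 82 were above 0 (49.8% of all genes), with a median of -0.01, and none passed in edgeR, DESeq2 or voom. Its lowest p-values were those of Rbl2, an RB family member (0.20 ± 0.08, edgeR adjusted p = 0.387), Impdh2, of guanine nucleotide synthesis (-0.15 ± 0.06, 0.416), and Mcm9 (0.20 ± 0.09, 0.432).

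**Figure D5:**
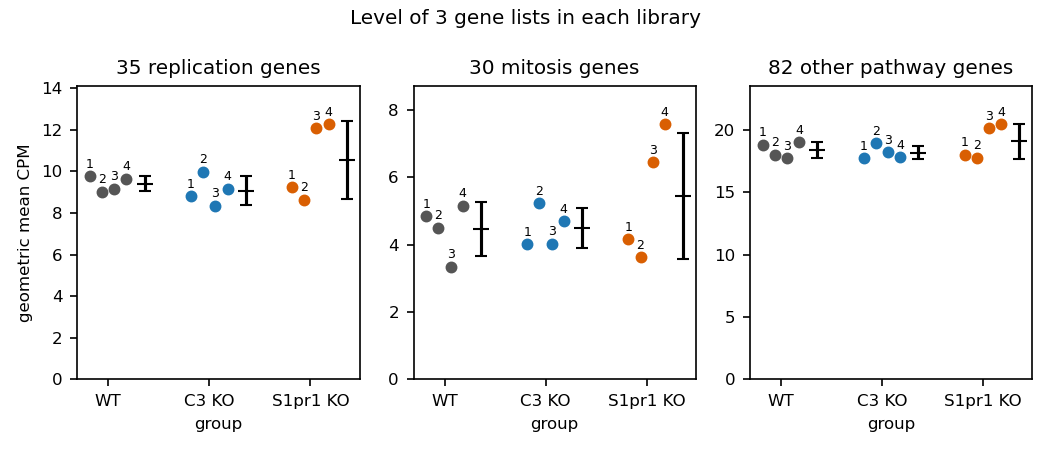
Geometric mean CPM of the 35 members, 30 mitosis genes and 82 other pathway genes in each library (points, numbered by replicate), with the mean and SD of each group (bars, n = 4). S1pr1 KO 3 and 4 are the highest libraries in all 3 panels, at 12.1 and 12.3 CPM for the members.

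The third comparison, S1pr1 KO against C3 KO, shares its libraries with the other 2 comparisons and adds no independent samples. No member and no other gene passed in edgeR (0.00%). DESeq2 called 2 of 35 members, Gins2 and Pole, and 1.57% of all genes, and voom called none and 0.178%. At an unadjusted p under 0.05, 7 members were higher (Gins2, Pole, Pcna, Uhrf1, Mcm10, Cdc6 and Mcm2; background 6.58%) and none lower (5.46%). In all, 31 of 35 were above 0 (50.7% of all genes), with a median of 0.17 against 0.0031 over all genes. Without the 2 libraries that go against their labels no member passed (0.0147% of all genes), 13 had an unadjusted p under 0.05 (13.6%) and 32 were above 0 (49.5%). Groups did not overlap for Gins2, Pole and Pcna, 3 of 35 against 3.55% of all genes.

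Gins2 was at 2.50, 2.51, 3.93 and 4.16 CPM in S1pr1 KO, above all C3 KO libraries given earlier (0.90 ± 0.22, edgeR adjusted p = 0.189; DESeq2 adjusted p = 0.0173). Pole was at 3.96, 5.42, 4.58 and 4.66 CPM in C3 KO, below all S1pr1 KO libraries (0.71 ± 0.18, edgeR adjusted p = 0.211; DESeq2 adjusted p = 0.0265). Pcna was at 35.5, 38.6, 37.4 and 42.1 CPM in C3 KO, and the S1pr1 KO libraries began just above (0.20 ± 0.07, edgeR adjusted p = 0.289). Uhrf1 was at 7.03, 9.16, 5.28 and 9.70 CPM in C3 KO and overlapped S1pr1 KO (0.70 ± 0.26, edgeR adjusted p = 0.327). Mcm10 was at 1.56, 2.14, 2.69 and 1.94 CPM in C3 KO and at 2.23, 2.71, 3.85 and 3.41 CPM in S1pr1 KO (0.55 ± 0.22, edgeR adjusted p = 0.357), with WT at 3.09, 2.03, 2.25 and 2.41 CPM.

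Of the mitosis genes, 26 of 30 were above 0 in S1pr1 KO against C3 KO (50.7% of all genes), with a median of 0.25. Their lowest p-values were those of Tacc3 (0.43 ± 0.14, edgeR adjusted p = 0.291), Prc1 (0.44 ± 0.20, 0.410) and Cdk1 (0.70 ± 0.32, 0.412). Of the other pathway genes, 57 of 82 were above 0 (median 0.05), with the lowest p-values for Cdkn1b (-0.36 ± 0.09, edgeR adjusted p = 0.210), Cdk6 (0.17 ± 0.05, 0.228) and Rb1, the retinoblastoma gene (-0.29 ± 0.08, 0.250).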

How the data were processed

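Whole-lung RNA was sequenced, with 12 libraries in 3 groups of 4 (groups from the titles and genotype labels). CASAVA, STAR and the builds GRCm39 and mm39 are named, without versions, in the submitters' processing notes; no source used here gives the read counter, whether it used strand, or the annotation. The authors deposited whole-number read counts per gene and, per the file headers, FPKM values for the same libraries. The main test was edgeR 4.0.16 under R 4.3.3 (filterByExpr, TMM, quasi-likelihood, 1 mean per group, 9 residual degrees of freedom), with Benjamini-Hochberg adjustment over 20229 genes and a threshold of 0.05. The SE is the absolute log2 fold change over the square root of F. FPKM was used to compare levels between genes and in limma 3.58.1 on log2(FPKM + 1). DESeq2 1.42.0, voom, other scalings, filters and leaving out libraries were alternatives. The model was tested on simulated data with log2 changes of 1 and 2. It recovered 81% and 99% of them, with 11 false calls. Smaller changes, such as those of the members, were not simulated. Promoters are RefSeq, on GRCm38.p6, and were matched by symbol; no coordinates were converted. Members, lists and tests were chosen with earlier results of these data known. Library values are given for members by a stated rule: the 3 of lowest p and those without overlap in each comparison. The rule also takes the highest and lowest in FPKM and 1 example per role. For other lists, library values are given for the 3 of lowest p and for Cdkn1a.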

Additional observations from a re-analysis of the deposited data

Results flagged for a closer look

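Among 105 groups of 4 libraries (35 members in 3 genotypes), 1 held a library far from the others by Dixon's criterion, which chance alone meets in about 1 in 20 groups. Cdc45 in WT was at 2.69 CPM in WT 1 and at 3.48 to 3.57 CPM in the other 3.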

How the results depend on the processing

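No paired analysis was possible because replicate numbers were given in accession order and do not link libraries of different groups. In all, 1506 values were recomputed under 23 alternatives. Of these, 22 were planned, and leaving out both libraries that go against their labels (C3 KO 4 and S1pr1 KO 2) was chosen after seeing the data. Direction and side of the threshold held for 1446 values, 23 crossed the threshold and 37 changed sign. Called members in S1pr1 KO against WT were 2 with DESeq2, 1 with voom and 1 without both libraries, and called pathway genes 4, 2 and 2. Over all genes these settings called 6.32%, 4.59% and 2.31%. Leaving out single libraries gave 0 to 1 pathway genes there (1 without S1pr1 KO replicate 2, Chaf1a). In S1pr1 KO against C3 KO, DESeq2 called 2 members and 2 pathway genes (1.57% of all genes). The median member fold change ranged from -0.06 to 0.01 in C3 KO against WT, from 0.07 (without S1pr1 KO 4) to 0.19 (without S1pr1 KO 2) in S1pr1 KO against WT, and from 0.09 to 0.26 in S1pr1 KO against C3 KO. Mcm10 and Pole were under the filter of the FPKM alternatives and have no value there.

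The sign changes were among log2 fold changes with no call, and the cause was not tested. In C3 KO against WT, voom gave -0.00857 for Uhrf1, -0.0256 for Pola1 and -0.00447 for Cdc45. Without both libraries these were -0.0309, -0.0229 and -0.0160. Leaving out single libraries gave -0.0121 to 0.154 for E2f1, -0.0330 to 0.20 for Mcm2, -0.0307 to 0.244 for Uhrf1, -0.0724 to 0.110 for Pola1, -0.0680 to 0.0655 for Cdc45, -0.124 to 0.0249 for Pole and -0.0226 to 0.728 for Ube2c. In S1pr1 KO against WT, E2f1 was 0.00866 with upper-quartile scaling, 0.0578 with voom and 0.0999 without both libraries. Rrm2 was 0.00496 with voom and 0.0514 without both libraries, where Pola2 was 0.0222. Leaving out single libraries gave -0.0857 to 0.10 for E2f1, -0.0988 to 0.0219 for Pola2, -0.230 to 0.0518 for Rrm2 and -0.105 to 0.139 for Rfc4. In S1pr1 KO against C3 KO, E2f1 was 0.0179 with voom and 0.0333 without both libraries, and leaving out single libraries gave -0.133 to 0.0358 for E2f1 and -0.0555 to 0.227 for Rrm2.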
